A study of Mus musculus with 4 samples.

Results

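The genes described are 4 G1 cyclins (Ccnd1, Ccnd2, Ccnd3 and Ccne1), the MYC family genes Myc and Mycn, and the MYB family genes Myb and Mybl2. They were chosen by name, as every probe set that the platform annotation gives to only 1 of these 8 symbols. That rule found 12 probe sets for the 8 genes, out of 10833 probe sets for 8251 genes. Both the 8 genes and the lists of related genes read below were chosen with earlier results of these data known. Shares over all genes printed beside their counts are therefore a scale and not a test. Total RNA of mouse embryonic stem cells was measured on 4 Affymetrix arrays. All 4 came from E14tg2a, an embryonic stem cell line grown without feeder cells. The control cells were sampled in medium holding 3000 U/ml of LIF (leukemia inhibitory factor, a cytokine that keeps mouse stem cells undifferentiated) and after 4 days without it. The other line, titled Akt12 and here called Akt cells, expressed constitutively active Akt and was sampled in the same pair of media. The sources used here do not say whether Akt12 is 1 clone, what drives the active Akt, or whether the control cells carry a vector. Each of the 4 groups holds 1 array, so no difference between a pair of arrays has a replicate check.

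D-type cyclins bind CDK4 and CDK6 and cyclin E1 binds CDK2, and these kinases inactivate the retinoblastoma proteins, which releases E2F factors to switch on genes for DNA replication. In most somatic cells D cyclins answer to growth factor signals, whereas mouse embryonic stem cells are known for a short G1 phase with high cyclin E activity. MYC and MYCN are transcription factors that bind DNA together with MAX and raise genes for growth and nucleotide synthesis, and MYC is a known target of LIF signalling through STAT3. MYB is best known from blood progenitors, and MYBL2 (B-MYB) is the family member of dividing cells, where it joins the MuvB complex on genes of late cell cycle phases. Akt is known to act on cyclin D1 and MYC proteins through GSK3, a step that arrays of RNA do not measure.

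Ccne1, Mycn, Myb and Mybl2 had, together with Myc, the widest ranges of intensity over the arrays, and RefSeq promoter sequence (build GRCm38.p6) was at hand for the first 4 of these and for Ccnd3. The stretches below lie upstream of the annotated start, 5′ to 3′ along the gene, and are shown because genes of the G1/S step are classic E2F targets. Capitals mark matches to E2F letters, which were TTTGGCGC, TTTCCCGC, TTTCGCGC, TTTGCCGC and the shorter core GCGGGA, searched on both strands. GCGGGA is contained in the reverse complement of TTTCCCGC and was added after the sequences had been read. The Mycn stretch is chr12:12941937-12942036 on the minus strand, bases -200 to -101 from the start.
Mycn: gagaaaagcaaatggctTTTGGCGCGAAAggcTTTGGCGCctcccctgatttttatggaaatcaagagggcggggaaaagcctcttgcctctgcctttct
The Ccne1 stretch is chr7:38107491-38107590 on the minus strand, bases -100 to -1.
Ccne1: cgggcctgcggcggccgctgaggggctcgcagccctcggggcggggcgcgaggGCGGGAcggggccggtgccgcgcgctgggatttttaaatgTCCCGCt
The Myb stretch is chr10:21160985-21161084 on the minus strand, bases -100 to -1.
Myb: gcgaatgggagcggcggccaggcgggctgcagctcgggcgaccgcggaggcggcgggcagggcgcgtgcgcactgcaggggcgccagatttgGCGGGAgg
The Mybl2 stretch is chr2:163054605-163054634 on the plus strand, bases -30 to -1.
Mybl2: gcggcgccgacgcacttgGCGGGAgatagg

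Mycn held 3 matches to the longer forms, beginning at bases -183, -179 and -168, and the first pair overlap. Of all 32851 RefSeq promoters of the same length, from 250 bases before to 50 after the start, 2.26% held a longer form. Ccne1, Myb and Mybl2 held the core GCGGGA, which 6562 of all 32851 promoters held. As this core was added after the sequences had been read, its presence in them is no test. Its share over all promoters was not matched for base content. Neither of the 2 Ccnd3 promoters held any of these letters. The E-box CACGTG (7.15% of all promoters), the STAT form TTCNNNGAA (8.3%) and the TCF form CTTTGAT (3.73%) were found in none of the 6 promoters of these 5 genes. The letters TTTGAA, known as CHR, were found in 17.9% of all promoters and, among the 6, in that of Mycn. These matches describe the letters of the windows and do not show binding.

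Intensities below were quantile normalized, and values under 15.8 (the 40th percentile, called the floor) were set to it. A level at the floor has no order among others there, and a fold against it is a lower bound. The trimmed mean intensity as deposited ran from 80.3 to 121 over the arrays, and 5625 to 5659 genes were above the floor on each. The actin 3′ to 5′ ratio, which tracks RNA integrity and labelling, was 1.66 to 3.04, lowest in control cells without LIF and highest in Akt cells with LIF. The Gapdh ratio was 2.46 to 3.19. Of 10 pluripotency markers, 9 were above the floor on every array and Esrrb on none, with summed intensities of 10886.1 and 11548.5 in control and Akt cells with LIF and 4095.1 and 7281.6 without LIF. The mesoderm marker sum was highest in control cells without LIF (3143.4 against 422.7 to 747.8 elsewhere, 7 genes, Mesp1 always at the floor). So was the trophoblast sum (2396.2 against 663.5 to 816.7, 9 genes, Elf5 at the floor). The fibroblast sum was also highest there (897.3 against 409.8 to 565.7, 10 genes, Postn at the floor). On that array Tagln and Actc1 gave 1318.5 and 789.9 of the mesoderm sum. Krt8, Krt18 and Krt19 gave 767.9, 627.0 and 537.7 of the trophoblast sum. Tfap2c, Thy1, Pdgfra and Kdr were highest on other arrays, Tfap2c and Thy1 being lowest on that one. All other markers of these lists that exceeded the floor were highest on it. The endoderm sum was highest in Akt cells with LIF (2072.0 against 785.6 to 1472.5, 10 genes, Ttr and Hnf4a at the floor). Apoe alone gave 1436.1 of that 2072.0. Gata4, Gata6, Sox17, Apoe and Lama1 were highest on that array, and Dab2, Sparc and Afp were highest on others. The 9 neuroectoderm markers summed to 732.5 to 953.5, with Map2 and Neurog1 at the floor. The part of RNA quality and of these other cells in the values below was not tested. In such bulk samples, fewer cells of a type and less RNA per cell cannot be told apart.

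Of the 8 genes, Ccne1, Mycn, Myb and Mybl2 were lower in control cells deprived of LIF, and in Akt cells the first 3 were higher instead. Genes are counted as different at a fold of 2 or more. After LIF withdrawal in control cells, 4 of 8 members were at least 2-fold lower (Mycn, Mybl2, Myb and Ccne1) and none higher, where 6.4% of 5984 genes were lower, 7.39% higher and 13.8% different in either direction. In Akt cells 3 of 8 were higher (Myb, Mycn and Ccne1) and 1 lower (Mybl2), where 3.01% of 5945 genes were higher, 3.65% lower and 6.66% different in either direction. Akt cells in LIF had 3 of 7 members above the floor at least 2-fold lower than in control cells (Mycn, Myc and Ccne1) and none higher, where 3.64% of 5938 genes were lower, 3.5% higher and 7.14% different. Without LIF, 4 of 8 were higher in Akt cells (Myb, Mybl2, Mycn and Ccne1) and none lower, where 5.87% of 6009 genes were higher, 8.12% lower and 14.0% different. The median log2 differences of the members were -0.75, 0.88, -0.79 and 0.74 in these 4 comparisons, beside -0.03, 0.01, 0.01 and 0.06 over all genes. Each array enters 2 of the 4 comparisons, so those sharing an array are not independent readings. When all probe sets of a gene were averaged, which brings in the sets at the floor, the counts of members 2-fold different were 2, 1, 3 and 2. For Mycn and Myb those sets are constant at the floor, so averaging shrinks their differences by construction.

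**Figure D1:**
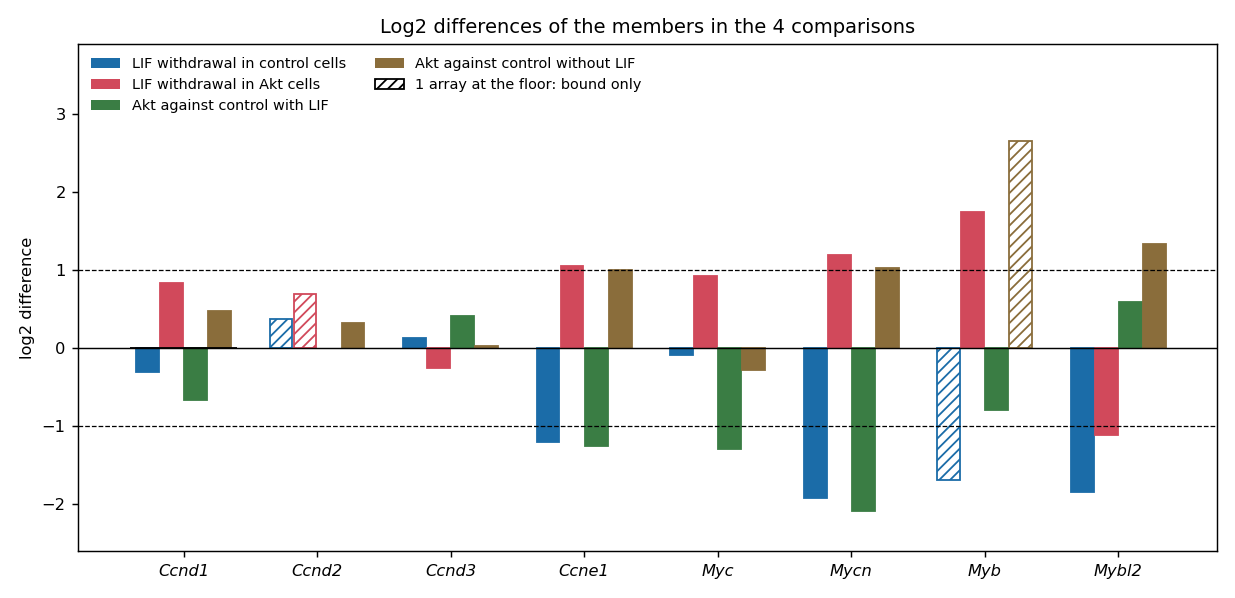
Log2 difference of each gene (bars from 0) in the 4 comparisons, with dashed lines at 2-fold. Hatched bars have 1 array at the floor and are lower bounds in size, and a comparison with both arrays at the floor has no bar. Blue and red bars point in opposite directions, both beyond 2-fold, for Ccne1, Mycn and Myb, and both point down for Mybl2. They are also opposite, but within 2-fold, for Ccnd1, Ccnd3 and Myc.

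No D cyclin was measured as 2-fold different in any comparison at the scaling and floor used, though the withdrawal differences of Ccnd2 are lower bounds. Ccnd1, the D cyclin best known as a growth factor target, read on 94232_at 153.8 with LIF and 124.1 without it in control cells, and 97.1 and 173.6 in Akt cells. Its other set, 94231_at, read 79.1, 73.7, 53.6 and 88.0 in that order, so both sets placed the arrays in the same order. After LIF withdrawal Ccnd1 had log2 differences of -0.31 and -0.10 on the 2 sets in control cells and of 0.84 and 0.72 in Akt cells. The line difference in LIF was -0.66 and -0.56, and the first became -1.24 with no scaling. Ccnd3 (160545_at) read 273.8, 299.4, 363.9 and 306.1 in the same order of arrays, a range of 0.41 in log2, the narrowest among the 6 members above the floor on every array. The signs of its differences in control cells and between the lines turned with no scaling (-0.23, -0.15 and -0.21), and the first was -0.04 when scaled to the hybridization controls. Ccnd2 (97504_at) was at the floor on both arrays with LIF, at 5.3 and 1.8 as deposited, and just above it without LIF, at 20.3 in control and 25.4 in Akt cells. That is at least 1.29-fold and at least 1.61-fold higher without LIF. The line difference without LIF was 0.32 in log2, and -0.03 with no scaling. Taking the 20th percentile (4.2) as floor, the log2 differences were 2.13 and 2.59, and at the 60th percentile as floor none of its values exceeded it.

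Cyclin E1 (Ccne1), the CDK2 partner that drives entry into S phase, was opposite in the 2 lines. On 103034_at, control cells read 424.0 with LIF and 185.1 without it, and Akt cells 178.9 and 370.4. The arrays formed a high pair (control with LIF, Akt without) and a low pair (control without LIF, Akt with). The level was 2.29-fold lower after LIF withdrawal in control cells and 2.07-fold higher in Akt cells, and Akt cells were 2.37-fold lower than control cells in LIF. Without LIF the Akt cells were 2.0-fold higher, a log2 difference of 1.0 that became 0.97 when arrays were scaled by trimmed means and 0.70 with no scaling. The log2 difference of 1.05 in Akt cells was 0.84 when scaled to the hybridization controls.

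Myc stood apart on 1 array. On 104712_at, control cells read 105.0 with LIF and 98.9 without it, and Akt cells 42.9 and 81.4. Akt cells with LIF were lowest, 2.45-fold below control cells in the same medium, and only 1.53% of genes had a more negative difference there. LIF withdrawal left a log2 difference of -0.09 in control cells and of 0.93 (1.9-fold) in Akt cells, where 3.8% of genes had a larger one. Without LIF the lines differed by -0.28.

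Mycn, the MYC family gene known for early embryonic and neural progenitors, was opposite in its response to LIF withdrawal in the 2 lines. On 103048_at, control cells read 858.4 with LIF and 227.3 without it, and Akt cells 202.1 and 465.0. Control cells in LIF were highest by far, and Akt cells in LIF lay near the control cells deprived of it. Withdrawal of LIF thus went with a 3.78-fold lower level in control cells and a 2.3-fold higher level in Akt cells. Akt cells were 4.25-fold lower than control cells with LIF and 2.05-fold higher without it. Only 20 of 5938 genes had a more negative difference between the lines in LIF, which is 0.337%. The second Mycn probe set, 161417_r_at, was at the floor on all 4 arrays (0.0 to 3.1 as deposited) and gives no second reading. Averaged with it, which shrinks every difference by construction, the log2 differences were -0.96 and 0.60 after withdrawal and -1.04 and 0.52 between the lines. The ending _r_at marks a set for which some probe selection rules were dropped.

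Myb was at the floor in control cells without LIF and opposite in the 2 lines. On 92644_s_at, control cells read 51.0 with LIF and were at the floor without it (6.8 as deposited), and Akt cells read 29.6 and 99.6. Akt cells without LIF were highest. Myb was therefore at least 3.24-fold lower in control cells after withdrawal, and 3.37-fold higher in Akt cells. Without LIF, Akt cells were at least 6.31-fold above control cells. In LIF they were 1.73-fold lower. Taking the 60th percentile (47.8) as floor, withdrawal gave log2 differences of -0.09 in control and 1.06 in Akt cells, and that between the lines without LIF fell from 2.66 to 1.06. With the 20th percentile as floor, the withdrawal difference in control cells was -3.04 and the line difference without LIF 4.0, so these sizes rest on the choice of floor. The other set, 162411_f_at, was at the floor on all 4 arrays. Averaged with it, Myb was no longer 2-fold different after withdrawal in either line (-0.85 and 0.88), and the line difference without LIF was 1.33. Averaging with a set constant at the floor shrinks every difference by construction, so it is no check of the first set. The ending _f_at marks a set that may detect several members of a sequence family, and _s_at one that may detect several transcripts.

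Mybl2 was lower without LIF in both lines. On 100023_at, control cells read 361.0 with LIF and 100.6 without it, and Akt cells 544.6 and 253.1. Each line's array with LIF lay above both arrays without it, and in each medium the Akt cells were higher. Withdrawal went with a 3.59-fold lower level in control cells and a 2.15-fold lower one in Akt cells, and Akt cells were 1.51-fold higher in LIF and 2.52-fold higher without it. The difference in LIF was -0.01 in log2 with no scaling. The second set, 161160_f_at, read 58.6, 45.6, 53.1 and 43.0 on the arrays in the same order. It was also lower without LIF in both lines, but by 1.29-fold and 1.24-fold, and its line differences were -0.14 and -0.09 in log2, below 0 where those of the first set were above it. With both sets averaged, the withdrawal differences were -1.10 and -0.71, and the line differences were 0.23 with LIF and 0.62 without it, no longer 2-fold.

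**Figure D2:**
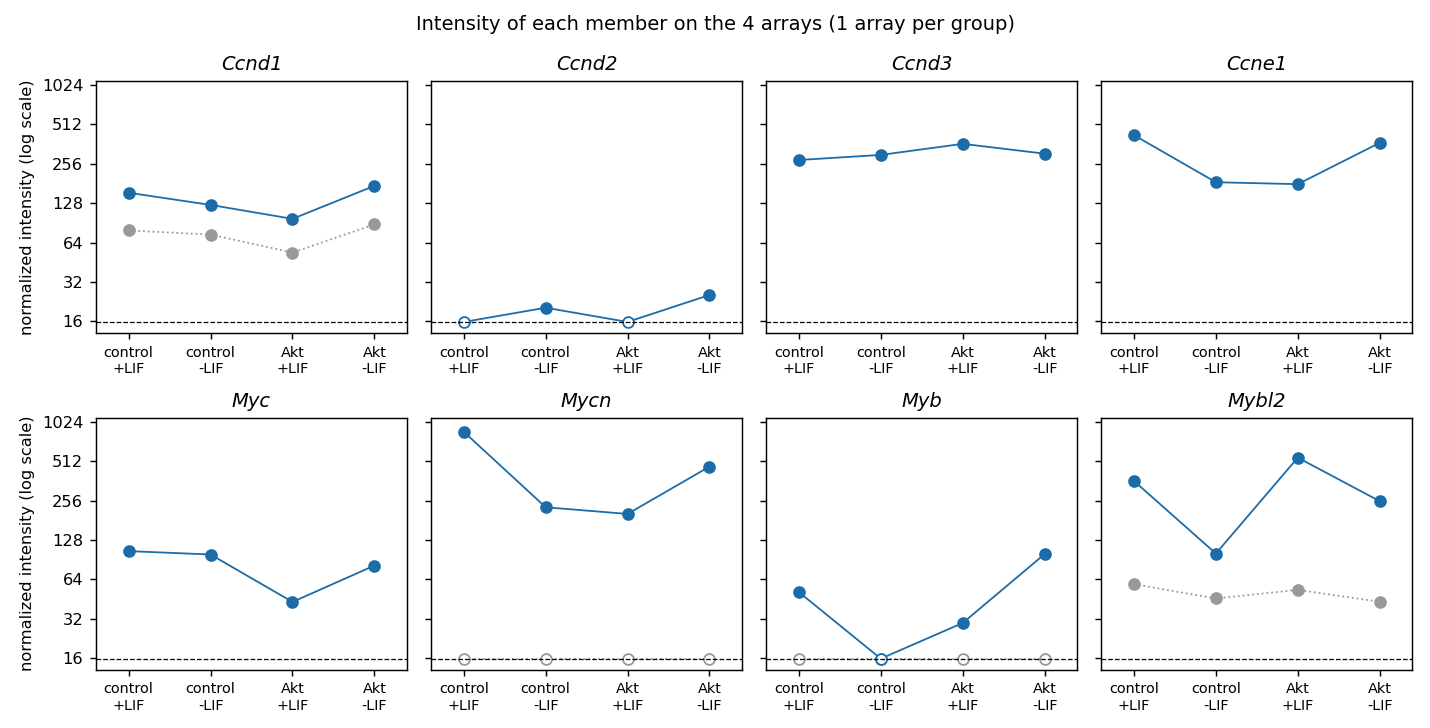
Normalized intensity (log scale) of each gene on the 4 arrays, 1 array per group. Blue points and solid lines are the probe set that stands for the gene, grey points and dotted lines any other set, open points a value at the floor, and the dashed line the floor of 15.8. On the blue sets, Ccne1 and Mycn are low in control cells deprived of LIF and in Akt cells kept in it. On these sets Mybl2 is lowest in control cells without LIF, and Ccnd3 is nearly level.

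The order of the arrays was read against the spread between probe sets of the same gene. For a pair of arrays, the log2 differences of such sets had a pooled SD of 0.333 to 0.46 around their gene's mean. This spread covers probe sets and not cultures. For Ccnd1, Ccnd2 and Ccnd3, no neighbours in the order differed by more than this SD. Ccne1 had 1 such gap, between Akt and control cells deprived of LIF (1.0), and Myc 1, between Akt cells without and with LIF (0.93). For Mycn, the top 3 arrays were separated by 0.88 and 1.03, and the lowest pair differed by 0.17, within the SD. All 3 gaps exceeded it for Mybl2 (0.59, 0.51 and 1.33) and for Myb (0.96, 0.79 and at least 0.91). These orders come from the first probe set of each gene. The second Mybl2 set placed control above Akt cells in both media, and with no scaling the first set's difference between the lines in LIF was -0.01.

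The responses of the 2 lines rest on separate arrays. Ccne1, Mycn and Myb were at least 2-fold lower in control cells and at least 2-fold higher in Akt cells, a pattern that 20 of 5671 genes had (0.353%). Akt minus control response was 3.12 in log2 for Mycn, which 10 of 5027 genes above the floor on all arrays exceeded, and 2.25 for Ccne1, which 32 exceeded. For Myb it was at least 3.45. It was 1.15 for Ccnd1 and 1.01 for Myc, exceeded by 7.04% and 9.23% of genes, 0.74 for Mybl2 (16.6%) and -0.38 for Ccnd3. Mybl2 belonged to the 54 genes at least 2-fold lower in both lines (0.952% of 5671). A difference of responses has no residual error with 4 arrays and was not tested.

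**Figure D3:**
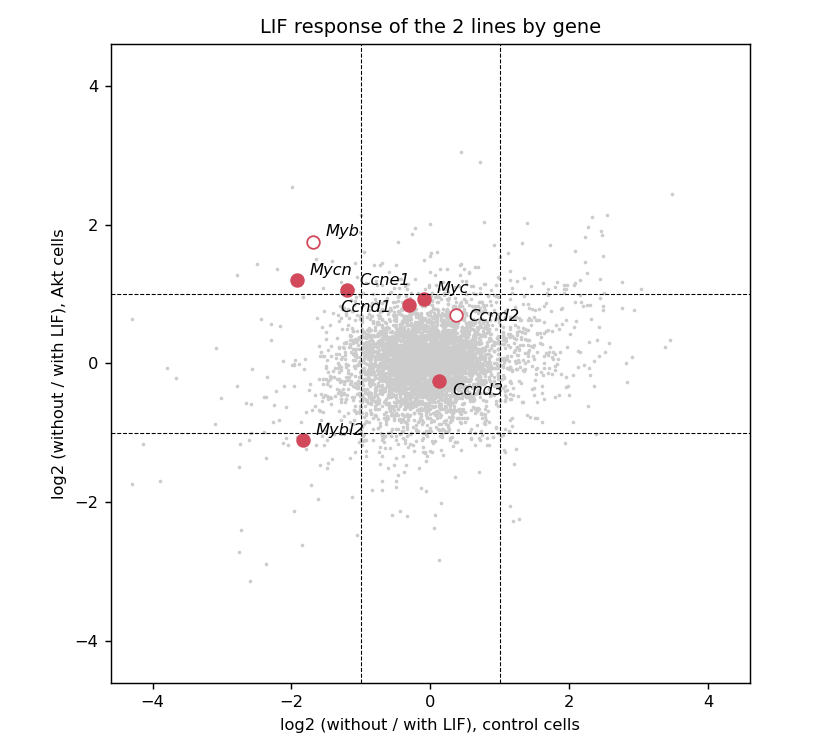
Log2 ratio of levels without to with LIF in Akt cells (vertical) against control cells (horizontal). Grey points are 5027 genes above the floor on all 4 arrays, red points the members, open ones (Myb and Ccnd2) members at the floor on some array, and dashed lines 2-fold. Mycn, Myb and Ccne1 lie at the upper left and Mybl2 at the lower left.

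What both lines shared was fitted with limma over 6258 genes, with a term for the line and one for LIF, so that unequal responses of the lines count as error. No member was called for either term at an adjusted p of 0.05 (Benjamini-Hochberg), where 0.304% of genes were called for LIF and 0.623% for the line. At an unadjusted p under 0.05, 1 of 8 members passed for each term, Mybl2 in both cases, beside 9.32% and 9.64% of genes. For Mybl2 the LIF term was -1.47 (SE 0.34, limma adjusted p = 0.158) with a lower level in both lines, and the line term was 0.96 (SE 0.34, limma adjusted p = 0.356) with a higher level in both media. Mycn had a LIF term of -0.36 (SE 0.59) and Ccne1 of -0.07 (SE 0.48), averages over responses of opposite sign.

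Of 14 genes on the array for the kinases and inhibitors that these cyclins work with and for other cyclins, 12 were above the floor in each LIF comparison, and none was 2-fold different in any of the 4 comparisons. Cdk4, a partner of the D cyclins, read 771.7 to 905.1 over the arrays, and Cdk2, the partner of cyclin E, 107.1 to 143.5. Cdkn1c, which encodes the inhibitor p57, had log2 differences of 0.75 and 0.72 after withdrawal and of 0.97 and 0.94 between Akt and control cells. Cdkn1a, the p21 gene, had 0.71 in control cells and 0.10 in Akt cells. Cyclin E2 (Ccne2) was at or near the floor on all arrays (at most 17.4), and cyclin A2 (Ccna2) read 345.1 to 383.7. Cdc25a, the phosphatase gene that activates CDK2, had -0.44 in control and 0.48 in Akt cells. Of the 6 measured genes of cyclin and MYC turnover, none was 2-fold different in any comparison.

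Of 7 retinoblastoma and E2F genes on the array, E2f1 was at least 2-fold lower after withdrawal in control cells and Rb1 in Akt cells. The shares of all genes at least 2-fold lower were 6.4% and 3.65%. E2f1 read 48.4 in control cells with LIF and 24.1 without, 2-fold lower (log2 -1.01), and 64.4 and 41.1 in Akt cells (-0.65), though its second probe set gave 0.01 in control cells, where it was at the floor on 1 of the arrays. Rb1 was highest in Akt cells with LIF at 87.0, against 22.6 to 38.9 elsewhere, with log2 differences of -1.16 after withdrawal in Akt cells and 1.65 between the lines in LIF. Its second set gave -0.87 and 0.89. Rbl1, the p107 gene, had 0.98 in control and -1.0 in Akt cells after withdrawal, each just under 2-fold, and -1.40 between the lines without LIF.

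In the MAX network, the MYC family gene Mycl read 93.4 with LIF and 255.3 without it in control cells, and 30.5 and 65.8 in Akt cells. Its log2 differences of 1.45 and 1.11 after withdrawal were thus positive in both lines, and Akt cells were lower in both media (-1.62 and -1.96). Mxd4, a MAX partner that opposes MYC, had 1.27 and 0.65 after withdrawal, and Mlx, which encodes a MAX-like protein, -1.04 and -0.33. Zbtb17, whose product MIZ1 binds MYC, was above the floor only in Akt cells with LIF, at 42.8. Max itself read 301.8 to 383.6. In the MuvB list, no gene of 3 above the floor was 2-fold different in any comparison.

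Known target genes were read as groups. Of 17 MYC target genes, 15 had lower values after withdrawal in control cells, 2 of them by at least 2-fold, and the median log2 difference was -0.58, and in Akt cells 14 were higher, none 2-fold, with a median of 0.15. The 2 were Shmt1, a folate enzyme gene (417.1 with and 106.9 without LIF in control cells, 282.6 and 277.5 in Akt cells), and Nop56, a nucleolar protein gene (log2 -1.03, with -0.31 on another set). Odc1 and Srm, which encode polyamine enzymes, had -0.86 and -0.98 in control cells and 0.68 each in Akt cells. Without LIF, 15 of 17 were higher in Akt than in control cells, Shmt1 (1.38) and Srm (1.07) by at least 2-fold, with a median of 0.52. With LIF 14 of 17 were lower in Akt cells, none 2-fold, with a median of -0.22. Of all genes, 6.4% were at least 2-fold lower after withdrawal in control cells. Without LIF, 5.87% were at least 2-fold higher in Akt cells.

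Of 18 E2F target genes above the floor, 17 had lower values after withdrawal in control cells, the median being -0.62, but only Ung, a uracil repair gene, by at least 2-fold (-1.44, and 0.27 on a second set). The helicase genes Mcm2, Mcm3, Mcm4, Mcm5 and Mcm7 had -0.39 to -0.84 there and -0.15 to 0.37 in Akt cells, and Mcm6 was at the floor throughout. In Akt cells the median was -0.12, which was 0.03 with probe sets averaged, with 11 genes lower and 7 higher. Without LIF all 18 were higher in Akt than in control cells (0.05 to 1.16, median 0.63), Rpa2 and Ung by at least 2-fold. The second Ung set gave 0.02 there. The shares of all genes at 2-fold were 6.4% lower after withdrawal in control cells and 5.87% higher in Akt cells without LIF. Of 15 late cell cycle genes known as targets of B-MYB and FOXM1, none was 2-fold different in any comparison. Their medians were -0.29 in control cells and -0.23 in Akt cells after withdrawal, with 14 and 11 genes lower, and Aurka had the lowest value in control cells, -0.91. Over all genes, 51.8% were lower after withdrawal in the control line and 48.8% in the Akt line, and 49.2% were lower in Akt than in control cells with LIF and 44.8% without it. With no scaling, the medians of the line difference in LIF were -0.83 for MYC targets and -0.58 for E2F targets, beside -0.52 over all genes.

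**Figure D4:**
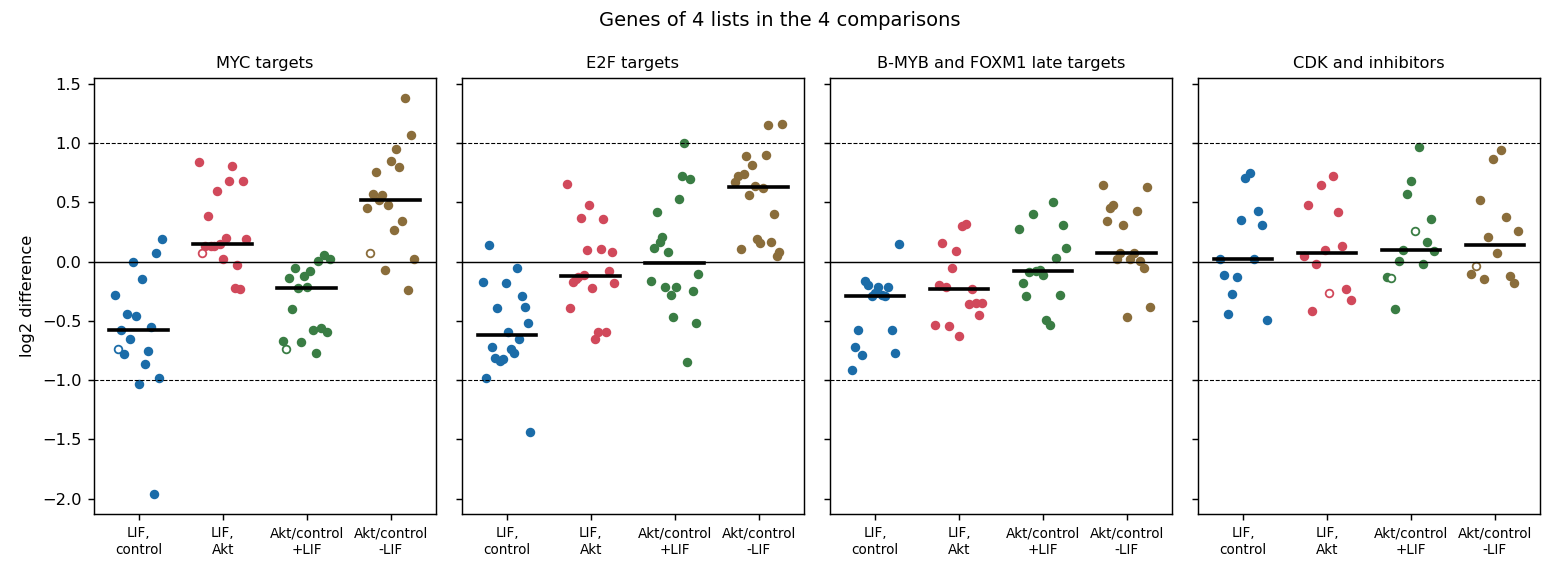
Log2 differences of the genes of 4 lists (points) in the 4 comparisons, LIF meaning without against with LIF. Bars are medians, open points have 1 array at the floor, and dashed lines mark 2-fold. MYC targets have medians of -0.58 and 0.15 for LIF withdrawal in control and Akt cells, and E2F targets of -0.62 and -0.12.

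Genes that act upstream were read last. Socs3, the STAT3 feedback gene, was lower without LIF in both lines, at 262.2 and 50.7 in control cells and 181.4 and 24.4 in Akt cells. Stat3 read 106.2 to 145.5. Fos read 69.0 in control cells with LIF and 183.7 to 330.2 on the other arrays, and Jun was at the floor in control cells with LIF and at 45.4 without, against 24.0 and 21.7 in Akt cells. Egr1, like Fos an immediate early gene, was 2.06-fold higher in Akt than in control cells in LIF. Tcf7l1, a repressor of Wnt targets, had -0.99 in control and -0.29 in Akt cells. Akt1 read 71.0 to 112.4, with Akt cells 1.1-fold lower in LIF and 1.57-fold lower without it. Akt2 read 33.6 in control cells with LIF and at most 18.7 elsewhere. The sources used here do not name the Akt form introduced, so these sets do not check the label.

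Among 5026 other genes above the floor on all arrays, those nearest to a member in the shape of the profile over the 4 arrays were found by the distance between log2 values centred on each gene's mean. For Ccne1 they were Etv2 (distance 0.11), an ETS factor gene of blood vessel progenitors, the DNA repair exonuclease gene Exo1 (0.14) and Timm8a1 (0.19), a mitochondrial import gene. For Mycn they were Knop1 (0.44), Luc7l3 (0.49) and Etv2 (0.6). For Myc they were Phtf1 (0.11), Tmem30b (0.13) and Serpina3n (0.15), and for Mybl2 Trap1a (0.19), Frrs1 (0.23) and Acss1 (0.25). Trap1a, the closest to Mybl2, read 684.6, 198.2, 1228.4 and 522.8 in control cells with and without LIF and Akt cells with and without LIF. With 4 arrays such likeness is a description.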

How the data were processed

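The members and the gene lists were chosen with earlier results of these data known. The authors deposited 1 linear intensity for each probe set and array; the sources used here name neither the software nor any scaling. The 66 array controls were set aside, and the other 12422 probe sets went through quantile normalization (limma 3.58.1, R 4.3.3), which removes a shift common to most genes. Values under the 40th percentile were set to it and log2 was taken. Symbols came from the platform annotation, updated through a RefSeq table of GRCm38.p6. Each gene was read from whichever of its probe sets had the highest mean over the arrays, and all probe sets of the members were read.

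With 1 array in each group, differences of at least 2-fold were counted among genes that exceeded the floor on 1 or both arrays compared. An additive limma fit (terms for line and LIF, lmFit with eBayes, threshold 0.05 after Benjamini-Hochberg adjustment over 6258 genes) was two-sided. It left 1 residual degree of freedom per gene, and only differences among the 4 arrays enter its p-values. On simulated data for the LIF term it called 16 of 100 genes made 2-fold different and 100 of 100 made 4-fold different. Of 6058 others it called 1, with 6258 genes in all. These rates hold only for the noise and signal set in the simulation. In the real fit, unequal responses of the lines widened the error, with a LIF term SE of 0.32 (Ccnd2) to 0.64 (Myb) over the members. Ccnd2 and Myb were also at the floor on some array. The rates therefore do not give the power of the fit for the members. Named from the lists were genes at least 2-fold different in a comparison, up to 6 per list. Other list genes named for their role (Cdk4, Cdk2, Cdkn1c, Cdkn1a, Ccne2, Ccna2, Cdc25a, Max, Odc1, the Mcm genes, Aurka, Stat3, Tcf7l1, Akt1) were chosen after their values were seen. The 3 nearest profiles were given for members above the floor on all arrays with a log2 range of at least 1. Other scalings, floors, averaged probe sets and a variance trend were tried as alternatives.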

Additional observations from a re-analysis of the deposited data

Results flagged for a closer look

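The LIF responses of 3 genes went in opposite directions in the 2 lines, by at least 2-fold in each, which is why they are listed here. Subtracting the control response from the Akt response gave 2.25 in log2 for Ccne1, 3.12 for Mycn and 3.45, a lower bound, for Myb. The pattern of 2-fold in each line did not hold for Mycn (-0.96 in control and 0.60 in Akt cells) and Myb (-0.85 and 0.88) with probe sets averaged. It did not hold for Ccne1 scaled to the hybridization controls (0.84 in Akt cells), nor for Myb with the floor at the 60th percentile (-0.09 in control cells). With 1 array per group the difference was not tested, and no cause was tested.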

How the results depend on the processing

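With no scaling, 5 members instead of 3 were 2-fold different between the lines in LIF, as Ccnd1 and Myb joined, and 2 instead of 4 without LIF, where Ccne1 (0.70) and Mycn (0.77) dropped out. That setting left a median log2 difference of -0.52 and -0.23 over all genes in these comparisons. With all probe sets of a gene averaged, the counts were 2 instead of 4 after LIF withdrawal in control cells, 1 instead of 4 in Akt cells and 2 instead of 4 between the lines without LIF. Other counts of members stayed within 1.5 times under the alternatives, and no member was called by limma under any of the 7 alternatives. The median over the members of the Akt minus control response was 1.08, with 0.97 to 1.35 under the alternatives. Of 15 member differences of at least 2-fold, those that stayed 2-fold in the same direction were 13 with no scaling, 14 with trimmed means, 14 with hybridization controls, 15 and 14 with the floor at the 20th and 60th percentiles, and 8 with averaged probe sets. No such difference reversed. For Mycn and Myb the second set is at the floor on all arrays, so averaging necessarily shrinks their differences and does not check them. Among all genes 2-fold different, the share that was higher went from 45.2% to 24.6% after withdrawal in Akt cells and from 49.1% to 63.3% between the lines in LIF with hybridization controls as the scale. With no scaling it went from 53.6% to 30.1% after withdrawal in control cells, from 49.1% to 6.17% between the lines in LIF and from 42.0% to 18.7% without LIF. Of 36 list medians, 10 moved beyond the probe set SD with no scaling, 9 of them between the lines in LIF, where all 9 lists were at -0.42 to -0.83. No paired analysis was possible because each group holds 1 array and no replicate numbers exist to pair, beyond the line term that the limma fit already holds. For the same reason no array could be left out of a comparison. Low signal limits Ccnd2 and Myb most.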
